A study of Mus musculus with 8 samples.

Results

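The carbonic anhydrases described here are 10 genes of the mouse family, Car1, Car2, Car3, Car4, Car5a, Car5b, Car8, Car12, Car13 and Car14, out of 16 carbonic anhydrase genes among the 44422 genes listed. Their rows were found by gene symbol and read in all 8 libraries. The set itself was chosen by a selection made with the FPKM values of these same libraries known, so the members' levels, their order and their differences are a description, and the adjusted p-values given for them are those of a fit over all genes and not independent evidence about the family.

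RNA-seq was performed on inguinal white adipose tissue (iWAT) and brown adipose tissue (BAT) of 10-week-old male C57BL/6 mice kept at 22 °C. In H1.2AKO mice the linker histone gene H1.2 was deleted in adipocytes, with Cre recombinase driven by the adiponectin promoter acting on loxP-flanked (floxed) H1.2 alleles. The comparison animals, labelled Flox and called WT here, carried the same floxed alleles and no Cre. The 4 groups were H1.2AKO BAT, WT BAT, H1.2AKO iWAT and WT iWAT, each with 2 libraries. Every library was a pool of mice of 1 group, and the sources differ on whether 2 or 3 mice entered a pool. Adiponectin-Cre acts in adipocytes, whereas the RNA came from whole fat pads, which also hold blood vessels, blood, immune cells and nerve.

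Carbonic anhydrases catalyse the reversible hydration of CO2 to bicarbonate and a proton. Cytosolic, mitochondrial, membrane-anchored and secreted forms exist, and they differ widely in speed. In fat cells the bicarbonate they supply is a substrate of acetyl-CoA carboxylase and pyruvate carboxylase, and the CO2 made by fuel oxidation, which is high in brown fat, has to be removed through the same reaction. Car3 is a slow cytosolic form that is known as one of the most abundant proteins of rodent adipocytes.

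Each library held 16118634 to 17480325 reads, as worked out from gene length and the deposited FPKM (fragments per kilobase, divided by a denominator per library). FPKM can therefore be set side by side between genes. The denominator was 0.873 to 0.955 times these reads in BAT and 1.23 to 1.33 times in iWAT, so it was not the read total. Hist1h1c, the table's name for H1.2, had 0.177 and 1.97 FPKM in H1.2AKO BAT against 36.8 and 43.3 FPKM in WT BAT, and 2.26 and 1.73 FPKM in H1.2AKO iWAT against 23.7 and 24.2 FPKM in WT iWAT. The tissue labels held against their markers: 8 of 8 brown adipocyte genes were higher in BAT in both genotypes (Cox8b had 2834 to 4013 FPKM in BAT and 176 to 268 FPKM in iWAT), and all 8 adipocyte genes were above 0 in every library (Fabp4 had 1302 to 1746 FPKM). Macrophage and lymphocyte markers went the other way, with 8 of 8 in each list called lower in BAT in both genotypes (C1qa had 39.9 to 65.0 FPKM in BAT and 241 to 287 FPKM in iWAT, Cd79a 0.484 to 1.36 FPKM in BAT and 106 to 139 FPKM in iWAT). For these marker counts, the share of all genes tested was 26.2% called higher and 27.9% called lower in BAT in H1.2AKO mice. In WT mice it was 25.3% higher and 28.2% lower. Of the Schwann cell markers, led by Pmp22, 6 of 7 tested in H1.2AKO and 5 of 7 in WT mice were called lower in BAT. The Schwann cell marker S100b, named after its values were seen, was the 1 of 7 called higher in BAT in each genotype (means of 32.7 FPKM in BAT and 1.47 FPKM in iWAT of H1.2AKO mice, and of 26.7 FPKM in BAT and 2.19 FPKM in iWAT of WT mice). The 7 epithelial markers, led by Krt19, summed to 0.221 to 0.528 FPKM in BAT and 16.2 to 30.2 FPKM in iWAT. In each genotype 4 of the 7 were tested and called lower in BAT. None of the 7 reached a mean of 0.5 FPKM over the BAT libraries. The 4 were thus tested only through their iWAT levels, which set the direction of the call in advance. Skeletal muscle RNA was uneven between libraries, and its values stand beside the results it moves with. In bulk tissue, fewer cells of a type and less RNA per cell cannot be told apart.

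Car3 was by far the highest member in both fat depots. In BAT its level was 1117 and 1014 FPKM in H1.2AKO libraries and 1746 and 1576 FPKM in WT libraries. In iWAT it was 2003 and 1797 FPKM in H1.2AKO libraries and 2779 and 2851 FPKM in WT libraries. The gene ranked between 28 and 54 among all listed genes in the BAT libraries and between 7 and 13 in the iWAT libraries. Of the FPKM of all 16 carbonic anhydrase genes, Car3 made up 93.5% to 95.5% in BAT and 97.3% to 98.3% in iWAT.

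**Figure D1:**
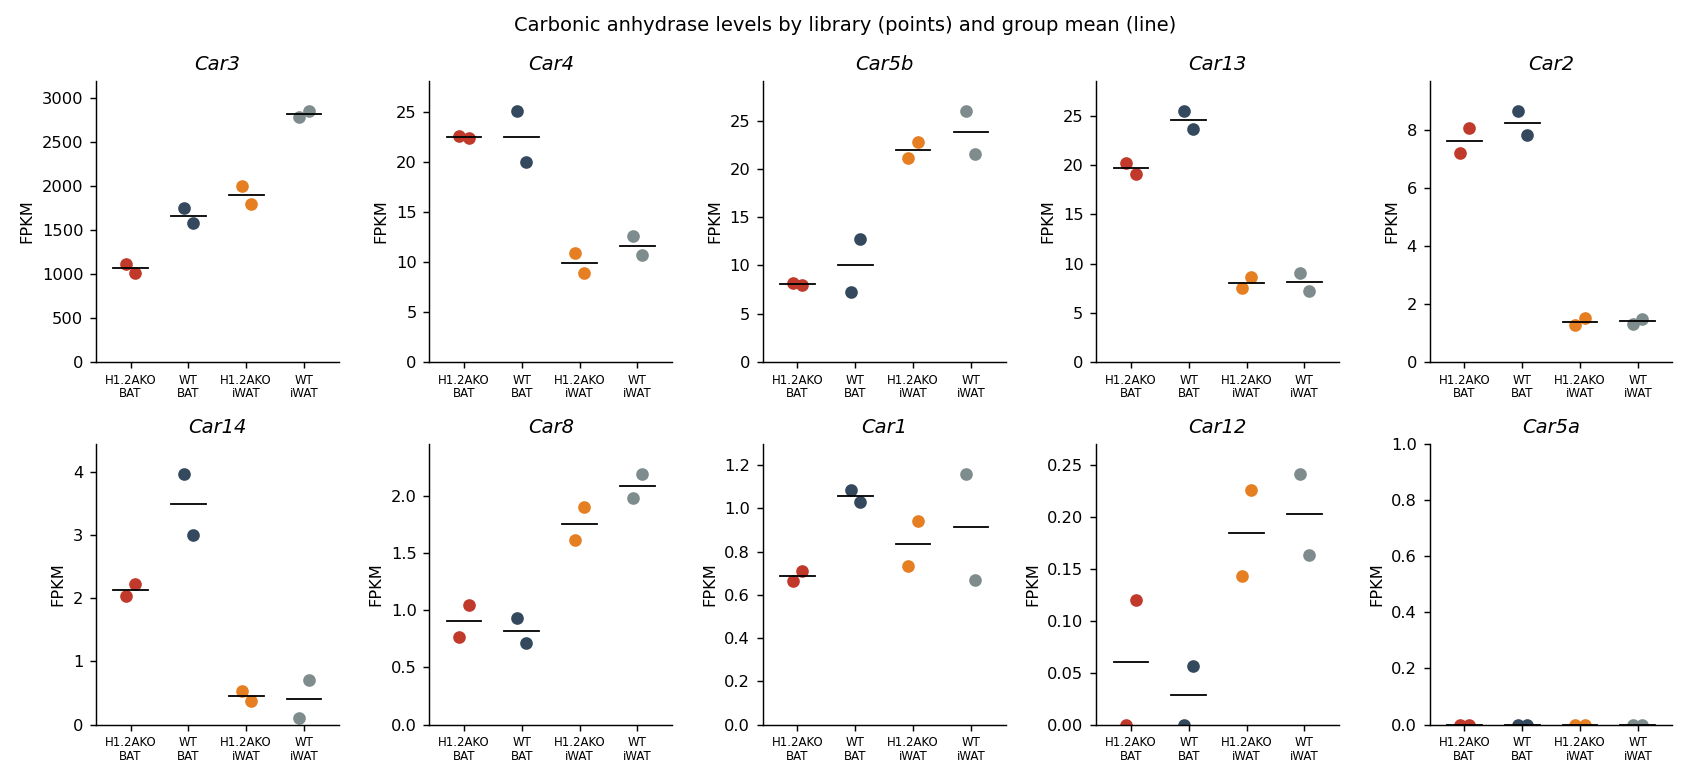
Level of each carbonic anhydrase in FPKM (vertical axes, linear from 0, scaled per gene), with 1 point per library and a line at the mean of the 2 libraries of a group. Car3 spans 1014 to 2851 FPKM, Car2, Car4, Car13 and Car14 stand higher in BAT, Car3, Car5b and Car8 stand higher in iWAT, and Car5a is at 0 in all 8 libraries.

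Below Car3 the order of the members differed between the depots. In BAT the other cytosolic and membrane forms followed, with Car4 at 22.5 ± 2.08 and Car13 at 22.1 ± 2.97 FPKM (mean ± SD over the 4 libraries of both genotypes), whose ranges overlapped. Car5b followed at 9.05 ± 2.51 FPKM and Car2 at 7.93 ± 0.600 FPKM, again with overlapping ranges. Car14 averaged 2.81 ± 0.881 FPKM, above Car1 at 0.872 ± 0.216 FPKM and Car8 at 0.865 ± 0.151 FPKM, which could not be ordered. Car12, at 0.0442 ± 0.0573 FPKM, overlapped Car5a, which had no read.

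In iWAT the mitochondrial form Car5b was second, at 22.8 ± 2.19 FPKM. Car4 (10.8 ± 1.502 FPKM) and Car13 (8.11 ± 0.901 FPKM) overlapped each other and lay above Car8 (1.92 ± 0.241 FPKM) and Car2 (1.39 ± 0.112 FPKM). Car1 (0.876 ± 0.222 FPKM), Car14 (0.427 ± 0.261 FPKM) and Car12 (0.194 ± 0.0477 FPKM) came last among the detected members, each overlapping its neighbour. These SDs hold the genotype difference as well as the spread between pools.

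Without Car3, the summed level of the 15 other carbonic anhydrase genes was higher in BAT than in iWAT on the deposited FPKM scale. It was 71.0 and 70.0 FPKM in H1.2AKO BAT, 82.1 and 78.8 FPKM in WT BAT, 48.4 and 49.6 FPKM in H1.2AKO iWAT, and 57.6 and 49.9 FPKM in WT iWAT. The 4 BAT libraries thus lay above the 4 iWAT libraries, while the sum with Car3 included was 1084 to 1828 FPKM in BAT and 1846 to 2901 FPKM in iWAT. The FPKM of all listed genes also summed higher in BAT (472346 to 524486) than in iWAT (303704 to 333994). As a share of those totals, the sums without Car3 overlap between the depots, so their order depends on the scale. 

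**Figure D2:**
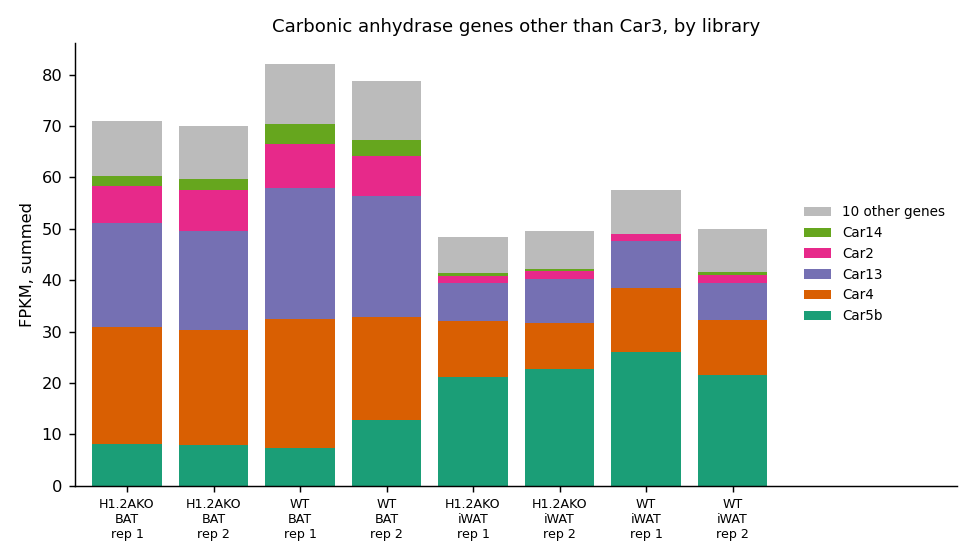
Summed FPKM (vertical axis) of the 15 carbonic anhydrase genes other than Car3 in each library. Car5b, Car4, Car13, Car2 and Car14 are stacked by gene, with the 10 other genes, Car11 among them, together in grey. The BAT bars reach 70.0 to 82.1 FPKM and the iWAT bars 48.4 to 57.6 FPKM, and Car5b fills a larger part of the iWAT bars.

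Car13, Car1, Car3 and Car2 lie next to each other on chromosome 3 of GRCm38 (mm10), from 14641727 to 14900770, a stretch of 259044 bases in which Car1 is on the - strand and the other 3 on the + strand. Car3 itself (ENSMUSG00000027559) spans 14863512 to 14872523. Levels and the direction between depots differed within this cluster: Car3 was lower in BAT than in iWAT, whereas Car2 and Car13 were higher. Car1 was not called in either genotype. Car14 is also on chromosome 3, from 95897768 to 95904691 on the - strand, and its 3′ end overlaps Aph1a, a subunit gene of gamma-secretase on the + strand, by 521 bases. Aph1a had 30.8 to 39.3 FPKM in BAT and 15.8 to 18.7 FPKM in iWAT. Whether reads were counted by strand is not given in the sources used here, so the part of Aph1a reads in the Car14 values was not tested and Car14 is uncertain. The remaining members are spread over the genome, with Car4 on chromosome 11, Car5a on 8, Car5b on X, Car8 on 4 and Car12 on 9.

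The first comparison the design allows is between the depots, BAT minus iWAT, within each genotype. Of the 8 members tested (a mean of at least 0.5 FPKM over the 4 libraries of a genotype), 4 were higher in BAT and 3 were lower in both H1.2AKO and WT mice, and Car1 passed in neither (limma on log2(FPKM + 0.5), adjusted p under 0.05). Of these 4, Car14 was tested only through its BAT level, since its iWAT mean lay under 0.5 FPKM. Over all genes tested, 26.2% were called higher and 27.9% lower in BAT in H1.2AKO mice, and 25.3% higher and 28.2% lower in WT mice. The median log2 difference was 0.49 over the tested members and -0.02 over all genes in H1.2AKO mice, and 0.54 over the members and -0.01 over all genes in WT mice. A large part of the transcriptome differed between the depots, so a call here sets no gene apart.

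Of the cytosolic forms, Car2, a fast enzyme found in many tissues, was higher in BAT. It had 7.20 and 8.05 FPKM in H1.2AKO BAT against 1.27 and 1.498 FPKM in H1.2AKO iWAT, and 8.65 and 7.81 FPKM in WT BAT against 1.32 and 1.48 FPKM in WT iWAT. The log2 difference was 2.11 ± 0.12 in H1.2AKO mice (standard error, adjusted p = 4.03e-05 from limma) and 2.20 ± 0.12 in WT mice (adjusted p = 4.05e-05 from limma). By the group means Car2 was 5.50-fold higher in BAT of H1.2AKO mice and 5.88-fold higher in BAT of WT mice.

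Car13, another cytosolic form, had 20.2 and 19.1 FPKM in H1.2AKO BAT against 7.47 and 8.66 FPKM in H1.2AKO iWAT. In WT mice it had 25.5 and 23.7 FPKM in BAT against 9.08 and 7.22 FPKM in iWAT. Its log2 difference was 1.24 ± 0.13 in H1.2AKO mice (adjusted p = 0.000328 from limma) and 1.54 ± 0.13 in WT mice (adjusted p = 0.000153 from limma), with no overlap between the depots.

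Car3 went the other way. Its BAT libraries lay below the iWAT libraries of the same genotype, with log2 differences of -0.83 ± 0.13 in H1.2AKO mice (adjusted p = 0.00205 from limma) and -0.76 ± 0.13 in WT mice (adjusted p = 0.00317 from limma). The BAT level was 0.561 of the iWAT level in H1.2AKO mice and 0.590 of it in WT mice.

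Car1, a cytosolic form known from red blood cells, did not pass between the depots. It had 0.662 and 0.711 FPKM in H1.2AKO BAT against 0.731 and 0.943 FPKM in H1.2AKO iWAT, and 1.09 and 1.03 FPKM in WT BAT against 1.16 and 0.671 FPKM in WT iWAT. These levels rest on 12 to 29 reads per library. The 8 erythroid markers summed to 326 to 468 FPKM in H1.2AKO BAT, 465 to 546 FPKM in WT BAT, 518 to 590 FPKM in H1.2AKO iWAT and 385 to 389 FPKM in WT iWAT, with Hbb-bs highest, Epb42 at 0 in 3 libraries and Rhag at 0 in 6.

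Of the membrane-bound forms, Car4 and Car14 were higher in BAT. Car4 is anchored to the outer cell surface by a lipid tail and is known from capillary endothelium. It had 22.6 and 22.4 FPKM in H1.2AKO BAT against 10.9 and 8.90 FPKM in H1.2AKO iWAT, and 25.1 and 19.995 FPKM in WT BAT against 12.6 and 10.7 FPKM in WT iWAT. Its log2 difference was 1.15 ± 0.15 in H1.2AKO mice (adjusted p = 0.000848 from limma) and 0.92 ± 0.15 in WT mice (adjusted p = 0.00232 from limma). The 9 endothelial markers, none of them at 0 in any library, summed to 248 to 260 FPKM in H1.2AKO BAT, 220 to 235 FPKM in WT BAT, 151 to 152 FPKM in H1.2AKO iWAT and 140 to 157 FPKM in WT iWAT. In each genotype 6 of the 9 were called higher in BAT, against 26.2% of all genes in H1.2AKO and 25.3% in WT mice. In H1.2AKO mice 1 of the 9 was called lower, and in WT mice 0 were. The part of these markers in the Car4 difference was not tested.

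Car14 crosses the membrane with its catalytic domain outside the cell. It had 2.03 and 2.23 FPKM in H1.2AKO BAT against 0.530 and 0.366 FPKM in H1.2AKO iWAT. In WT mice it had 3.97 and 3.00 FPKM in BAT against 0.0981 and 0.713 FPKM in iWAT. The iWAT means, 0.448 FPKM in H1.2AKO and 0.406 FPKM in WT mice, lay under 0.5 FPKM. Car14 thus entered this comparison only through its BAT libraries, where it was high, and its call is no separate support. The log2 difference was 1.48 ± 0.33 in H1.2AKO mice (adjusted p = 0.00881 from limma) and 2.22 ± 0.33 in WT mice (adjusted p = 0.00159 from limma). Adding 0.5 before the logarithm understates the change of so low a gene, and by the group means Car14 was 4.75-fold higher in BAT of H1.2AKO mice and 8.59-fold higher in BAT of WT mice. Without H1.2AKO iWAT replicate 2 the H1.2AKO value was 1.35 (adjusted p = 0.0553 from limma). The 2 WT iWAT libraries held 5 and 39 Car14 reads, so the WT iWAT mean is loose.

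Car12, the other transmembrane form of the set, was close to the floor. Over all 8 libraries it held 86 reads, and it was not tested. Its highest library, WT iWAT replicate 1, had 0.242 FPKM (95% Poisson interval 0.152 to 0.366 FPKM, counting error only). In iWAT it had 0.144 and 0.227 FPKM in H1.2AKO libraries and 0.242 and 0.164 FPKM in WT libraries, and in BAT it had 0 and 0.120 FPKM in H1.2AKO libraries and 0 and 0.0565 FPKM in WT libraries.

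The mitochondrial forms were split. Car5a, known as the mitochondrial form of liver, had 0 reads in all 8 libraries, which allows up to 0.154 FPKM per library, the value of 3 reads in the library where they weigh most. Car5b, the mitochondrial form of wider distribution, was detected throughout. It had 8.20 and 7.97 FPKM in H1.2AKO BAT against 21.1 and 22.8 FPKM in H1.2AKO iWAT, and 7.28 and 12.8 FPKM in WT BAT against 26.0 and 21.6 FPKM in WT iWAT. Its BAT level was lower, with log2 differences of -1.39 ± 0.24 in H1.2AKO mice (adjusted p = 0.00277 from limma) and -1.25 ± 0.24 in WT mice (adjusted p = 0.00452 from limma). Mitochondrially encoded genes went the opposite way, with 31.4% to 34.3% of all FPKM in BAT and 11.1% to 13.5% in iWAT.

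Car8 lacks a residue that binds the catalytic zinc, does not hydrate CO2, and is known to bind the inositol trisphosphate receptor in brain. It had 0.769 and 1.04 FPKM in H1.2AKO BAT against 1.61 and 1.91 FPKM in H1.2AKO iWAT, and 0.932 and 0.716 FPKM in WT BAT against 1.98 and 2.20 FPKM in WT iWAT. The log2 difference was -0.69 ± 0.17 in H1.2AKO mice (adjusted p = 0.0122 from limma) and -0.97 ± 0.17 in WT mice (adjusted p = 0.00290 from limma). In H1.2AKO mice the call was lost without iWAT replicate 2 (-0.59, adjusted p = 0.0756 from limma) and without BAT replicate 1 (-0.55, adjusted p = 0.0579 from limma).

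**Figure D3:**
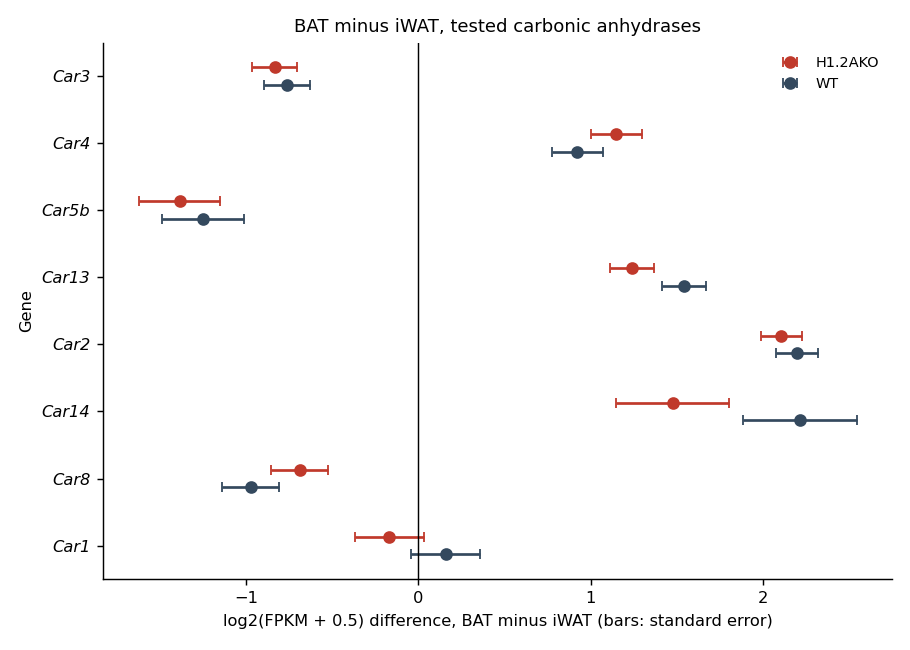
Difference in log2(FPKM + 0.5) between BAT and iWAT (horizontal axis, positive where BAT is higher) for the 8 tested carbonic anhydrases, with H1.2AKO above WT for each gene and bars of 1 standard error. Car2, Car4, Car13 and Car14 lie to the right of 0 and Car3, Car5b and Car8 to the left in both genotypes, and Car1 crosses 0.

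FPKM summed to 472346 to 524486 over the listed genes in BAT libraries and to 303704 to 333994 in iWAT libraries, so the total differed between the depots. The median ratio of a library's genes to their geometric mean over all libraries differed little. It was 0.990 to 0.998 in BAT libraries and 1.02 to 1.03 in iWAT libraries. An alternative set the FPKM of all genes that are not mitochondrially encoded to 1 common sum per library. It therefore changed both the total and the place of the mitochondrial transcripts, and which of these moved the values was not tested. On that scale the median of all genes moved to -0.31 in H1.2AKO and -0.23 in WT mice, and the calls over all genes split into 2145 higher and 5925 lower in BAT in H1.2AKO mice (3691 and 3928 on the deposited scale) and into 2400 higher and 5436 lower in WT mice (3571 and 3973 on the deposited scale). The 7 members kept their direction and their side of the threshold in both genotypes there.

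RefSeq promoter windows of GRCm38.p6 (250 bases before the annotated start and 50 after) matched 5 of the 10 members, namely Car4, Car5a, Car5b, Car12 and Car14. Shown are those of the 3 whose level differed between the depots, 2 higher in BAT and 1 lower, 5′ to 3′ on the strand of the gene. Capitals mark matches to 5 short motifs searched on both strands, namely the TATA box spelled as TATAAA, the CCAAT box as CCAAT, the GC box as GGGCGG, the half-site of nuclear receptors such as PPARs as AGGTCA and the E-box as CACGTG. Car4 is at chr11:84957504-84957803 on the + strand, Car14 at chr3:95904636-95904935 on the - strand and Car5b at chrX:164027961-164028260 on the - strand.
Car4: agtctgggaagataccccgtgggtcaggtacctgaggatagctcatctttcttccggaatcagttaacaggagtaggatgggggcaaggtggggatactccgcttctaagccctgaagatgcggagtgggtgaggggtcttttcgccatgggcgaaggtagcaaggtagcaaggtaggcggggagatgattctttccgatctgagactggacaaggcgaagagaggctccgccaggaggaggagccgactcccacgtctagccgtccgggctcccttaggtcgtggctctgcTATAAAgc
Car14: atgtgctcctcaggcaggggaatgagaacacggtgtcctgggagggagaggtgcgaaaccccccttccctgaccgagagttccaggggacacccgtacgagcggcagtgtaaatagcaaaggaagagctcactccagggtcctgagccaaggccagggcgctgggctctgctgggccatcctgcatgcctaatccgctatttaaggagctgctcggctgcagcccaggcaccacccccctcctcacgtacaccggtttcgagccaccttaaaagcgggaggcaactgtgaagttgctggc
Car5b: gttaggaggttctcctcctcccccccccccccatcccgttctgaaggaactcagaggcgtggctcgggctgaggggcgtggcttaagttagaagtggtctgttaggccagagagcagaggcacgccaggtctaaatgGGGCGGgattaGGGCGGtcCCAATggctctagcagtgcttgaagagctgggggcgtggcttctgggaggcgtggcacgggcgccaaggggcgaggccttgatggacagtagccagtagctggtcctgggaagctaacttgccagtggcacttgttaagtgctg

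The Car4 window held the TATA box from the 43rd base after the annotated start, and none of the 5 motifs was found in the Car14 window. The window of Car5b, which was lower in BAT, held the GC box at 113 and 102 bases and the CCAAT box at 94 bases before the start, none of them overlapping. Of all 32851 promoter windows in the RefSeq table, 13.6% held the TATA box, 37.4% the CCAAT box, 35.7% the GC box, 16.3% the nuclear receptor half-site and 7.15% the E-box. A match describes the letters only.

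The second comparison is between H1.2AKO and WT mice within a depot, the question of the study. No gene passed an adjusted p under 0.05 in limma in either depot, so 0% of 13190 genes were called in BAT and 0% of 14349 in iWAT, with 1651 genes in BAT and 855 in iWAT at an unadjusted p under 0.05. The deleted gene Hist1h1c was itself not called, with log2 differences of -4.97 ± 0.53 in BAT (adjusted p = 0.0719 from limma) and -3.30 ± 0.53 in iWAT (adjusted p = 0.367 from limma). On reads recovered from the FPKM, limma-voom called 20 genes in BAT and 5 in iWAT, none of them a member. With 2 libraries against 2, an exact permutation test of a single gene cannot go below a two-sided p of 0.333.

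All 7 members tested in iWAT and 6 of the 8 tested in BAT had a log2 difference below 0. Over all genes this held for 7296 of 14349 in iWAT and 6266 of 13190 in BAT. The differences of Car1, Car2, Car5b and Car13 in iWAT and of Car2 in BAT were smaller than their standard errors. The median was -0.28 over the members and 0.01 over all genes in BAT, and -0.11 over the members and 0.00 over all genes in iWAT. In BAT the H1.2AKO pools were lower than the WT pools, with no overlap, for Car3, Car13, Car14 and Car1, 4 of the 8 tested, against 18.9% of all genes tested (22.4% lay above). In iWAT this held for Car3 and Car8, 2 of the 7 tested, against 20.5% of all genes (16.7% lay above). No member lay above without overlap in either depot.

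Car3 had the smallest p of the members in both depots. By the group means its H1.2AKO level was 0.641 of the WT level in BAT (1065 ± 73.1 FPKM in H1.2AKO and 1661 ± 120 FPKM in WT, SD, n = 2 each). In iWAT it was 0.675 of the WT level (1900 ± 146 FPKM in H1.2AKO and 2815 ± 50.8 FPKM in WT, SD, n = 2 each). The H1.2AKO and WT libraries did not overlap in either depot. The log2 difference was -0.64 ± 0.13 in BAT (adjusted p = 0.201 from limma) and -0.57 ± 0.13 in iWAT (adjusted p = 0.600 from limma). Neither passed the adjusted threshold, and over the alternatives the adjusted p ran between 0.0908 and 0.404 in BAT and between 0.357 and 1.00 in iWAT. Counting error was small at this depth, since each library held 42570 to 175681 Car3 reads. The 8 adipocyte markers, none at 0 in any library, summed to 4572 to 4985 FPKM in H1.2AKO BAT against 5234 to 5350 FPKM in WT BAT, and to 4438 to 4508 FPKM in H1.2AKO iWAT against 5165 to 5796 FPKM in WT iWAT. Of these 8 genes, 3 in BAT and 5 in iWAT lay below WT without overlap, against 18.9% and 20.5% of all genes tested. By log2 difference, 3 were higher and 5 lower in H1.2AKO BAT, and 2 were higher and 6 lower in H1.2AKO iWAT. Of the 8, 0 passed the adjusted threshold in limma, and the part of these markers in the Car3 difference was not tested.

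The Car3 difference was set beside those of other abundant genes. Of the 512 genes with a mean of at least 100 FPKM, 4 had log2 differences at or below those of Car3 in both depots, Car3 itself among them. The cutoff was taken from Car3, a member chosen with these data known, so the count does not measure how rare its difference is. A gene that fell slightly less than Car3 in only 1 depot is also left out. The others were Cyp2e1, a cytochrome P450, Gpx8, an endoplasmic reticulum peroxidase, and Slc27a1, a fatty acid transporter, named after their values were seen. Of the 12594 genes tested in both depots, 5.80% had H1.2AKO libraries below WT libraries without overlap in both, as Car3 did.

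**Figure D4:**
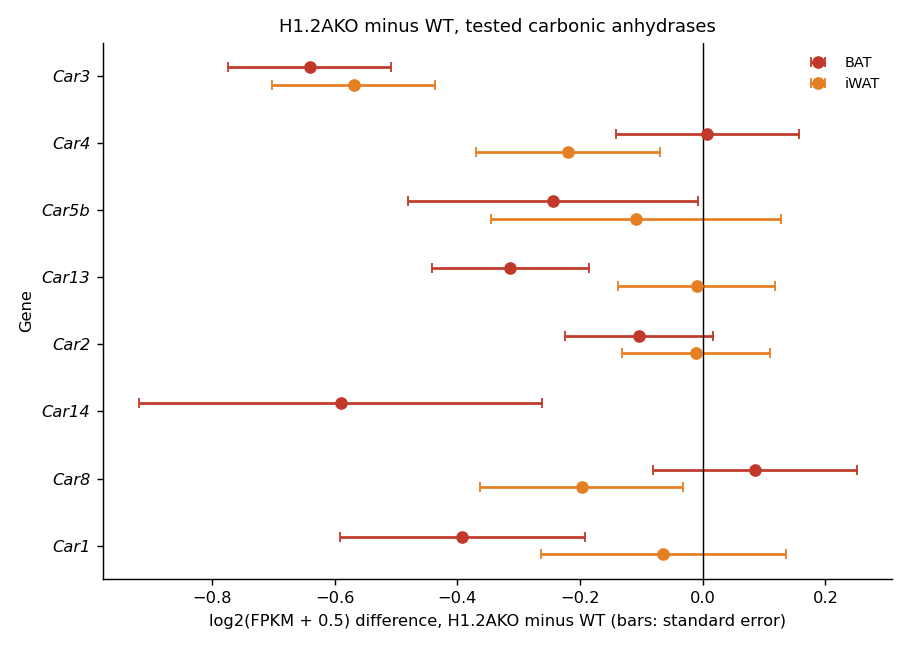
Difference in log2(FPKM + 0.5) between H1.2AKO and WT (horizontal axis, negative where H1.2AKO is lower) for the tested carbonic anhydrases, with BAT above iWAT for each gene and bars of 1 standard error. Car3 stands at -0.64 in BAT and -0.57 in iWAT, and Car14 has a BAT value only because it was not tested in iWAT.

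Skeletal muscle, in which Car3 is also known to be abundant in slow fibres, left uneven traces in the fat pads. The 13 fast-fibre genes summed to 129 and 1712 FPKM in the H1.2AKO BAT libraries and to 3200 and 3613 FPKM in the WT BAT libraries, and all 12 tested lay below without overlap in H1.2AKO BAT. The 8 slow-fibre genes summed to 9.99 and 129 FPKM in H1.2AKO BAT and to 267 and 367 FPKM in WT BAT, and all 8 lay below without overlap. Both counts stand against 18.9% of all genes tested in BAT. In iWAT the fast-fibre sum was 3155 and 3001 FPKM in H1.2AKO libraries and 195 and 4544 FPKM in WT libraries, and the slow-fibre sum was 4.42 to 10.4 FPKM in H1.2AKO and 2.09 to 8.83 FPKM in WT. Acta1 and Mb led the 2 lists, Tnnc2 was at 0 in 3 BAT libraries, and Myh7, Myl2 and Myoz2 were at 0 in 1 to 3 libraries.

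The H1.2AKO BAT pool with little muscle RNA had 1117 FPKM of Car3 and the pool with more had 1014 FPKM, and the WT iWAT pools with 195 and 4544 FPKM of fast-fibre genes had 2779 and 2851 FPKM of Car3. With the mean level of the 21 muscle genes as a covariate the Car3 difference was -0.70 in BAT and -0.55 in iWAT. Without H1.2AKO BAT replicate 1, the pool low in muscle RNA, it was -0.71 in BAT, and without WT iWAT replicate 1 it was -0.59 in iWAT. The part of muscle RNA in the Car3 difference was not tested beyond these values.

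**Figure D5:**
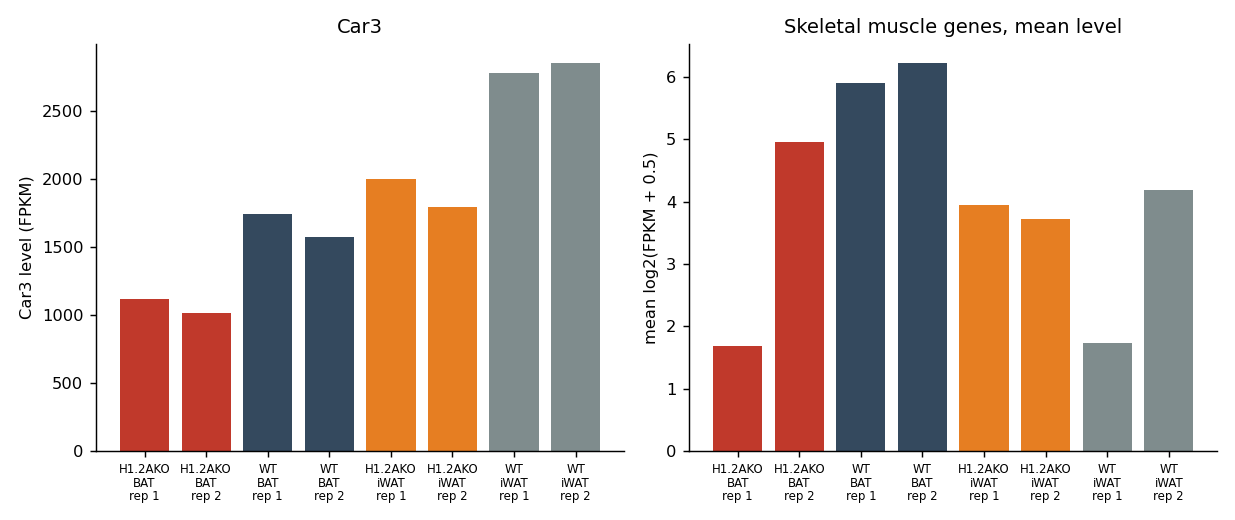
Car3 level in FPKM (left, linear from 0) and mean log2(FPKM + 0.5) of 21 skeletal muscle genes (right) in each of the 8 libraries. Muscle RNA is low in H1.2AKO BAT replicate 1 (1.68) and WT iWAT replicate 1 (1.74), where Car3 stands at 1117 and 2779 FPKM, with 1014 and 2851 FPKM in the other pools of those groups.

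Among the other cytosolic forms, Car13 was lower in H1.2AKO BAT without overlap, at 19.7 ± 0.789 FPKM against 24.6 ± 1.30 FPKM in WT BAT (SD, n = 2 each), a log2 difference of -0.31 ± 0.13 (adjusted p = 0.392 from limma). In iWAT it averaged 8.06 ± 0.841 FPKM in H1.2AKO and 8.15 ± 1.31 FPKM in WT, a difference of -0.01 ± 0.13. Car2 differed by -0.10 ± 0.12 in BAT and by -0.01 ± 0.12 in iWAT, with overlapping libraries in both. Car1 was lower in H1.2AKO BAT without overlap, with a log2 difference of -0.39 ± 0.20 (adjusted p = 0.477 from limma) on 12 and 13 reads against 20 and 20, and its iWAT libraries overlapped (-0.06 ± 0.20). The muscle and erythroid sums given above were also lower in H1.2AKO BAT than in WT BAT, the erythroid sums with an overlap, and their part in the Car1 difference was not tested. With the muscle covariate the BAT difference was -0.57 for Car1 and -0.49 for Car13.

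Of the membrane-bound forms, Car4 differed by 0.01 ± 0.15 in BAT and by -0.22 ± 0.15 in iWAT, with overlap in both. Car14 was lower in H1.2AKO BAT without overlap, at 2.13 ± 0.138 FPKM against 3.49 ± 0.686 FPKM in WT BAT (SD, n = 2 each), a log2 difference of -0.59 ± 0.33 (adjusted p = 0.512 from limma). With the muscle covariate this difference shrank to -0.14. The mitochondrial Car5b differed by -0.24 ± 0.24 in BAT, where the WT pools themselves were at 7.28 and 12.8 FPKM, and by -0.11 ± 0.24 in iWAT. The non-catalytic Car8 lay below WT without overlap in iWAT (-0.20 ± 0.17, adjusted p = 0.982 from limma) and overlapped in BAT (0.09 ± 0.17).

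Whether the genotype difference depended on the depot was tested as the tissue by genotype interaction. None of the 8 members tested passed, and over all 14945 genes 0% did (839 at an unadjusted p under 0.05). The interaction was -0.07 ± 0.19 for Car3 (adjusted p = 0.981 from limma), so the Car3 differences of BAT and iWAT lay within their error of each other. Among the members, the smallest unadjusted p was that of Car13 (-0.30 ± 0.18, adjusted p = 0.874 from limma).

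The 6 carbonic anhydrase genes outside the set were all lower in level than Car4. Car11, a non-catalytic relative, had 6.29 and 4.89 FPKM in H1.2AKO BAT against 7.53 and 6.83 FPKM in WT BAT, and 2.87 and 2.52 FPKM in H1.2AKO iWAT against 3.55 and 3.96 FPKM in WT iWAT. It was lower without overlap in both depots (-0.34 ± 0.14 in BAT, adjusted p = 0.399, and -0.41 ± 0.14 in iWAT, adjusted p = 0.720, from limma). The cytosolic Car7 was higher without overlap in both, with 1.96 and 2.66 FPKM in H1.2AKO BAT against 1.35 and 1.41 FPKM in WT BAT, and 1.15 and 1.38 FPKM in H1.2AKO iWAT against 0.893 and 0.718 FPKM in WT iWAT. Its log2 difference was 0.57 ± 0.17 in BAT (adjusted p = 0.282 from limma) and 0.43 ± 0.17 in iWAT (adjusted p = 0.819 from limma), so it did not pass in either. Both Car7 and Car11 were called higher in BAT than in iWAT in each genotype. Car15, Car9, Car6 and Car10 stayed under 1 FPKM in every library.

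Genes that move or use bicarbonate and acid were read as partners of these enzymes, in 3 lists. Over all genes 26.2% were called higher and 27.9% lower in BAT in H1.2AKO mice, 25.3% and 28.2% in WT mice, and 0% between genotypes. Of 14 genes of the Slc4 and Slc26 families, grouped by family as bicarbonate transporters, 7 were tested between BAT and iWAT in each genotype. Whether each of them carries bicarbonate was not tested. In WT mice 1 was called higher in BAT, Slc4a4, and 4 were called lower, Slc4a3, Slc4a7, Slc4a8 and Slc4a11. In H1.2AKO mice the same genes were called apart from Slc4a3. The median of the tested transporters was -0.12 in H1.2AKO mice and -0.41 in WT mice. Slc4a4, a sodium bicarbonate cotransporter, had 9.75 and 10.4 FPKM in H1.2AKO BAT against 1.403 and 1.21 FPKM in H1.2AKO iWAT, and 19.2 and 19.5 FPKM in WT BAT against 1.47 and 2.02 FPKM in WT iWAT. Its depot difference was 2.55 ± 0.14 in H1.2AKO mice (adjusted p = 3.42e-05 from limma) and 3.15 ± 0.14 in WT mice (adjusted p = 2.23e-05 from limma).

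Between genotypes, 0 of the transporters tested (5 in BAT and 7 in iWAT) passed. Slc4a4 had the smallest p of them, with H1.2AKO BAT lower by a log2 difference of -0.91 ± 0.14 (adjusted p = 0.128 from limma) and H1.2AKO iWAT at -0.31 ± 0.14 (adjusted p = 0.847 from limma), both without overlap. By limma-voom on the recovered reads the BAT difference was -0.94 (adjusted p = 0.0472). The next smallest p was that of Slc4a2, an anion exchanger, in BAT (0.27 ± 0.12, adjusted p = 0.411 from limma) and of Slc4a8 in iWAT (0.31 ± 0.17, adjusted p = 0.924 from limma).

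Of 10 genes of acid and lactate export, Slc16a1, a monocarboxylate transporter, and its chaperone Bsg were called higher in BAT in both genotypes, and Emb, a related chaperone, was called lower. Slc16a1 had 61.8 and 60.6 FPKM in H1.2AKO BAT against 6.92 and 8.34 FPKM in H1.2AKO iWAT, and 70.2 and 59.0 FPKM in WT BAT against 5.86 and 5.40 FPKM in WT iWAT. In H1.2AKO mice Slc16a8 was also called higher, with 1.60 and 1.10 FPKM in BAT against 0.313 and 0.516 FPKM in iWAT. Its iWAT mean lay under 0.5 FPKM, so it was tested there only through BAT. In WT mice Slc16a8 was not tested, since its mean lay under 0.5 FPKM, with 0.375 and 0.923 FPKM in BAT and 0.276 and 0.386 FPKM in iWAT. The median depot difference of the genes tested was -0.03 in H1.2AKO mice (8 tested) and -0.02 in WT mice (7 tested). Between genotypes 0 of 8 tested in BAT and 0 of 7 in iWAT passed, with the smallest p for Emb in BAT (-0.52 ± 0.15, adjusted p = 0.264 from limma) and for Slc16a1 in iWAT (0.40 ± 0.12, adjusted p = 0.659 from limma). The second smallest p was that of Slc16a8 in BAT (0.71 ± 0.28, adjusted p = 0.377 from limma) and that of Slc16a3 in iWAT (0.68 ± 0.52, adjusted p = 0.976 from limma).

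Of 9 enzymes that use bicarbonate, 8 were tested and 6 were called higher in BAT in both genotypes: Acacb, the acetyl-CoA carboxylase at the mitochondrial surface, the propionyl-CoA carboxylase subunits Pcca and Pccb, the methylcrotonyl-CoA carboxylase subunits Mccc1 and Mccc2, and Cad of pyrimidine synthesis. Acacb had 190 and 191 FPKM in H1.2AKO BAT against 45.7 and 48.4 FPKM in H1.2AKO iWAT, and 165 and 170 FPKM in WT BAT against 57.0 and 34.6 FPKM in WT iWAT. Acaca and Pcx, the cytosolic acetyl-CoA carboxylase and pyruvate carboxylase, did not pass. The median depot difference was 0.73 in H1.2AKO mice and 0.65 in WT mice.

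Between genotypes 0 of the 8 carboxylase genes passed in either depot, and 7 of 8 had a log2 difference above 0 in BAT (median 0.20) and 3 of 8 in iWAT (median -0.04). Acaca had the smallest p in BAT, with 241 and 280 FPKM in H1.2AKO BAT against 157 and 187 FPKM in WT BAT (0.60 ± 0.24, adjusted p = 0.385 from limma). Pcca was second in both depots, at 0.22 ± 0.10 in BAT (adjusted p = 0.449 from limma) and -0.23 ± 0.10 in iWAT (adjusted p = 0.855 from limma), with an interaction of 0.45 ± 0.15 (adjusted p = 0.826 from limma). Mccc1 had the smallest p in iWAT (-0.23 ± 0.09, adjusted p = 0.805 from limma).

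For each of the 8 members with a mean of at least 0.5 FPKM, the genes with the most similar profile were taken from 12282 candidates, by the root mean square difference of centred log2(FPKM + 0.5) values over the 8 libraries. The likeness holds the large depot difference and says nothing of shared control. For Car3 these were St3gal4, a sialyltransferase (0.117 log2 units), and Tmem120a, a membrane protein of fat cells (0.124 log2 units). Tmem120a averaged 67.2 FPKM in H1.2AKO BAT and 97.9 FPKM in WT BAT, and 126 FPKM in H1.2AKO iWAT and 172 FPKM in WT iWAT. For Car5b they were Mogat1, a monoacylglycerol acyltransferase (0.0860), and Sec16b (0.0914), and for Car4 Ndrg3 (0.0669) and Ormdl3 (0.0767).

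For Car13 the nearest profiles were Cntnap1 (0.0773) and the peroxisomal carrier Slc25a17 (0.0909), and for Car2 Ltbp2 (0.0812) and St6galnac6 (0.0942). For Car8 they were Xpa (0.0908) and Tnfsf12 (0.0916), and for Car1 Cnih1 (0.0723) and Usp53 (0.110). Car14 had the loosest match, with Shmt1 (0.233) and Got1 (0.235), a glycine hydroxymethyltransferase and an aspartate aminotransferase of the cytosol.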

How the data were processed

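The authors deposited FPKM per gene for 8 libraries of poly(A)-selected RNA, beside the length and position of each gene. HISAT2 2.0.5 and the builds GRCm38.p6 and mm10 are named in the submitters' processing notes, whereas the sources used here give neither the read counter and its strand setting nor the tool behind the FPKM. In every library 100% of the values came to whole reads within 0.01 after multiplying by gene length. 42462 identifiers are in GENCODE vM21.

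Log2(FPKM + 0.5) was analysed with R 4.3.3 and limma 3.58.1, with 1 mean per tissue and genotype over all 8 libraries and trended moderation (prior degrees of freedom 2.57, residual 4). A gene entered a comparison when its mean over those 4 libraries reached 0.5 FPKM (for the interaction, in either tissue), p-values were adjusted by Benjamini-Hochberg over all of them, and the threshold was 0.05. The script was tested on simulated data. Per the methods, RNA was isolated mouse by mouse and then combined into the 2 pools of a group, so p-values measure the spread between 2 pools per group. The members and all lists were chosen with earlier results of these data known. Named genes are the members, the other carbonic anhydrases, Hist1h1c, of each of the 3 partner lists every gene past the threshold and the 2 with the smallest p in a genotype comparison or between depots in WT, the highest gene of each marker list, and 2 nearest profiles per member. Some items that this rule names are not reported here. The Poisson intervals and the floor of 3 reads cover counting error only. Python 3.11.15 with scipy 1.17.1 and matplotlib 3.10.9 was used for levels and figures. Alternatives were other pseudocounts (0.1 and 1), filters, scalings, moderation, a replicate block, a muscle covariate, limma-voom on recovered reads and each library left out in turn.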

Additional observations from a re-analysis of the deposited data

How the results depend on the processing

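With 2 pools per group a lone pool, after the other was left out, had to be assumed as variable as the rest. Levels under about 1 FPKM rest on few reads. The planned quasi-likelihood count test on recovered reads was not run, because the deposited unit is FPKM.

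Of the members' differences between depots, 298 of 302 values kept direction and side of the threshold over all alternatives. The exceptions were Car8 and Car14 in H1.2AKO mice, given in the report, and Car1 in WT mice, at -0.093 to 0.41 when libraries were left out. None of the genotype differences or interactions of the members passed under any alternative, but 10 of 139 values in iWAT, 7 of 150 in BAT and 4 of 143 for the interaction changed sign. Rescaled without mitochondrially encoded genes, Car2 (0.010) and Car13 (0.019) in iWAT and Car4 in BAT (-0.051) changed sign. With the muscle covariate Car13 in iWAT (0.047), Car2 (0.012) and Car4 (-0.096) in BAT and the Car2 interaction (0.060) did. With libraries left out, the iWAT values ran between -0.32 and 0.19 for Car1, -0.097 and 0.075 for Car2, -0.24 and 0.022 for Car5b and -0.16 and 0.15 for Car13. Those in BAT ran between -0.15 and 0.17 for Car4, -0.63 and 0.14 for Car5b and -0.057 and 0.23 for Car8, and the interactions between -0.15 and 0.0068 for Car3 and -0.52 and 0.25 for Car5b. The cause was not tested.

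Over all genes, the 0 calls between genotypes became 11 in iWAT and 5 for the interaction with no filter on low values, 6 in BAT and 3 for the interaction with a pseudocount of 0.1, 2 in BAT with a pseudocount of 1, and 5 in iWAT and 20 in BAT by limma-voom. With libraries left out they ran between 1 and 21 in iWAT, 0 and 18 in BAT and 0 and 2 for the interaction. With the replicate block they stayed 0 in all 3, and 7599 and 7495 genes differed between depots in H1.2AKO and WT mice. The labels name no animal that same-numbered pools share, and with 2 pools per group the numbers were not taken as pairing (correlations of deviations -0.13 in iWAT and 0.080 in BAT between genotypes, and 0.098 in H1.2AKO and 0.13 in WT mice between depots), and a crossed block in iWAT, added after the data were examined, gave 0 calls.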
